A study of Drosophila melanogaster with 4 samples.

Results

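Broad Myc peaks are regions of the fly genome, each over 3000 bp wide, in which the signal precipitated with an antibody against the Drosophila Myc protein was called as 1 continuous peak. They were selected on the width of the peak, a measured value, among the peaks on the chromosome arms 2L, 2R, 3L, 3R, 4 and X. There were 222 of them among 7867 arm peaks, which is 2.82% of the arm peaks, and 8614 peaks in the whole list. A row of 23 of the 222 lies near the base of 2L and is described apart from the other 199. Width was the rule, so that these peaks are wide is not a result.

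Myc, encoded by the gene diminutive (dm), is a basic helix-loop-helix leucine zipper protein that binds DNA as a dimer with Max, most tightly at the E-box word. In flies it drives cell growth, and genes for ribosome production are among its best known targets. A transcription factor with a short binding word usually gives a narrow ChIP peak, and a wide one can hold several bound places that the peak caller did not part.

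The material was whole wandering larvae at the third larval stage, of unrecorded sex, from the Y cn bw sp strain. The labels give its genotype as y[1] and oc[R3.2] on the first chromosome, cn[1], bw[1] and sp[1] with CG33964[R4.2], Gr22d[1] and Gr22b[1] on the second, and Rh6[1], lab[R4.2], GstD5[1], LysC[1] and MstProx[1] on the third. The same strain gave all 4 libraries, of which 2 were made after precipitation with the rabbit polyclonal antibody MycN and 2 from input DNA. Whole larvae mix polyploid larval tissues with dividing imaginal cells, so a peak sums over all these cells. The outcome is 1 list of peaks, on Release 5 of the genome, for all libraries together. No value belongs to a single library, the sequencing depth is unknown, and no spread between replicates exists, so the differences below are given as medians, quartiles and counts without a test. No genome sequence or annotation of Release 5 was used, so peaks are named by position and no sequence is shown.

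The 199 broad peaks outside the 2L row were mostly a little wider than the threshold, with a long upper tail. The narrowest was 3007 bp and the widest 13751 bp, the median 3744 bp and the quartiles 3328 and 4685 bp. Of them, 82 were wider than 4000 bp, 41 wider than 5000 bp, 13 wider than 7000 bp and 2 wider than 10000 bp. The 222 broad peaks covered 939.2 kb, or 12.35% of all bases in arm peaks. The threshold falls in a continuous distribution. The 5 peaks just inside it were 3007, 3034, 3035, 3056 and 3057 bp wide and scored 366.54, 36.14, 177.46, 167.11 and 236.50, while the 5 just outside were 2967, 2967, 2964, 2956 and 2954 bp wide and scored 551.97, 350.24, 458.00, 198.78 and 764.51. With a threshold of 2500 bp the arms held 365 broad peaks, and with 4000 bp they held 90.

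Broad peaks came mostly from the upper part of the score range, where they were still a minority. The score was given by the authors' peak caller on an unnamed scale, and it comes from the same signal as the width, so both are linked from the start. Outside the row the lowest score was 36.14, the median 305.39 and the highest 971.90, and 196 of the 199 reached the median of all arm peaks, 62.87. The share of arm peaks that were broad and outside the row was 0.74% at scores from 50 to 100, 2.86% from 100 to 200, 6.75% from 200 to 300 and 10.61% from 300 to 400. Above that the share changed little, at 11.79% from 400 to 500, 13.17% from 500 to 700 and 12.5% above 700. Among the 10 strongest arm peaks 1 was broad, among the 100 strongest 12 were, and among the 1000 strongest 110 were. Within the 199, width and score went together only loosely, at a Spearman's rho of 0.28, against 0.82 over all 7867 arm peaks. Restricting the set to wide peaks narrows the range of both values, and peaks are not independent replicates.

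**Figure D1:**
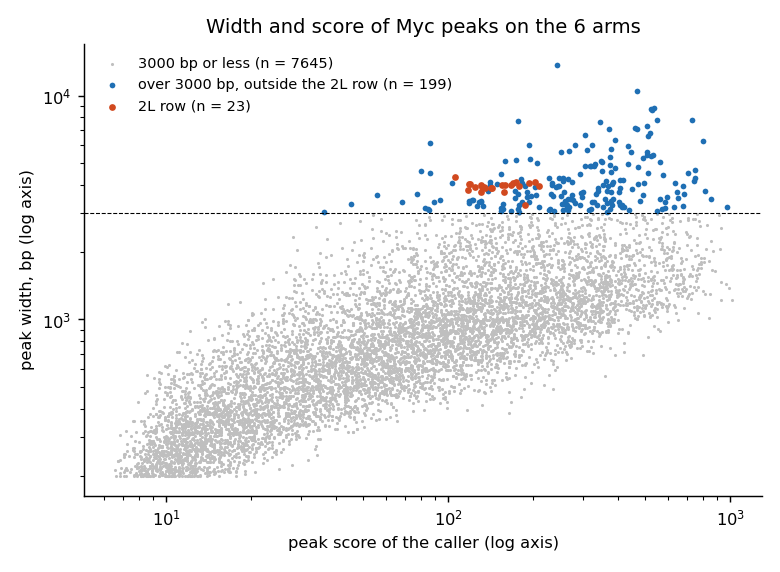
Width of each arm peak in bp against the peak caller's score, both on log axes. Grey points are the 7645 peaks of 3000 bp or less, blue points the 199 broad peaks outside the 2L row, red points the 23 peaks of the row, and the dashed line marks 3000 bp; the red points lie close together, between 105.92 and 209.25 in score and between 3253 and 4317 bp in width.

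To compare broad peaks with narrower ones of like strength, each of the 199 was set against the 10 arm peaks of 3000 bp or less that were nearest in score. The 1990 matches were 1302 distinct peaks. The largest score gap within a set of 10 had a median of 1.12 and reached 100.61 for the strongest broad peaks, where few others score as high, and it exceeded 10 in 8 sets. A broad peak was 3.07 times as wide as the median of its matches, as the median over the 199, with a range from 1.49 to 12.86 times.

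The widest peak on the arms, 13751 bp on 2L from 5221224 to 5234974, had a middling score of 243.75 and was 12.86 times as wide as its matches. It ended 99 bp before the next peak, and its nearest neighbour on the other side lay 69565 bp away. The second widest, 10526 bp on 2R from 9469179 to 9479704, scored 467.49 and was flanked at 127 bp and 55 bp by other peaks. The next 3 were of nearly equal width, with 8765 bp on 3L from 18981487 to 18990251, 8704 bp on 2L from 19392282 to 19400985, and 8652 bp on 2R from 10028031 to 10036682. Their scores were also close, at 535.53, 525.33 and 529.66. The 3L peak had neighbours at 457 bp and 282 bp, whereas the nearest neighbours of the 2L and 2R peaks lay 13201 bp and 3150 bp away. Very wide peaks thus occurred both inside tight groups and apart from them.

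The other 5 of the 10 widest were between 7338 and 7804 bp. The peak on X from 19064238 to 19072041 scored 549.29 and ended 73 bp before its neighbour. Those on 2L from 7538121 to 7545859 and from 7502532 to 7510247 scored 731.61 and 176.23 and belong to 1 dense stretch described below. Of the 3R pair, one lay from 18455167 to 18462767 with a score of 345.77 and a neighbour at 284 bp. Its counterpart, from 11822190 to 11829527, scored 505.00 and had a neighbour at 61 bp.

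The strongest broad peaks were seldom the widest, and a single peak was among the 10 of both kinds. The highest score, 971.90, belonged to a peak of 3176 bp on 3R from 10918703 to 10921878, which had a neighbour 76 bp away on 1 side and none for 35550 bp on the other. The next 2 were 3445 bp on X from 7860863 to 7864307, with a score of 852.85, and 3744 bp on 2L from 11805905 to 11809648, which scored 812.38. This 2L peak had no other peak for 288224 bp on its left side. Of the 10 strongest, the pair on 2L from 7531606 to 7537854 and from 7538121 to 7545859, with scores of 798.26 and 731.61, were the ones over 5000 bp. The others of the 10 were on 3L from 8055604 to 8059891 (751.07) and from 8789781 to 8794310 (706.61), and on X from 9577851 to 9582486 (748.95), from 12794452 to 12798604 (744.50) and from 15630249 to 15633873 (687.37).

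A small group of broad peaks was weak. There were 13 with a score below 100, and 7 of these were on X. The weakest, 3034 bp wide, lay on 2L from 13512731 to 13515764 and scored 36.14. It was followed by a 2L peak of 3266 bp from 3770309 to 3773574 at 45.11, and a 3L peak of 3600 bp from 11287684 to 11291283 at 55.92. The widest of these weak peaks, 6162 bp on 3R from 14738646 to 14744807, scored 86.38 and was 8.74 times as wide as its matches. No other peak lay less than 4447 bp from it.

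The arms did not share the broad peaks in proportion to their peaks. Outside the row, X carried 53, or 26.6%, against 18.6% of all arm peaks and 19.1% of the score-matched peaks. The arm 3L carried 19, or 9.5%, against 19.8% of all arm peaks and 22.4% of the matched ones. The remaining long arms were near their share, with 38 on 2L (19.1% against 18.6%), 38 on 2R (19.1% against 18.8%) and 48 on 3R (24.1% against 23.1%). Per Mb of span, the density was 2.36 on X, 1.80 on 2R, 1.72 on 3R, 1.65 on 2L and 0.77 on 3L. Broad peaks are few, so single regions weigh on these shares, and with 1 list their spread in a repeat is unknown.

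The low share on 3L held in most score classes. Of 3L peaks scoring 100 to 200, 0.39% (1 of 258) were broad, against 2.64% to 4.74% on the other long arms. Above 400, 4.26% (4 of 94) of 3L peaks were broad, against 10.91% to 17.86% on the others. Both 3L shares rest on few broad peaks. From 200 to 400 the distance was smaller, with 6.19% on 3L and 7.41% to 10.12% elsewhere. On X the share was the highest of the long arms below 100, from 100 to 200 and above 400, and lay between those of 2R and 3R from 200 to 400. At thresholds of 2000 and 4000 bp X was also the highest and 3L the lowest of the long arms. At 2000 bp, 10.5% of X peaks and 6.36% of 3L peaks were wider, close to the 6.77% on 2R. At 4000 bp, 1.58% and 0.58% were. The place of X changed above that. At 4500 bp, 0.97% of 2L peaks were wider against 0.82% of X peaks, and at 5000 bp X, at 0.55%, lay below 2L at 0.70% and 3R at 0.66%. Of all broad peaks outside the row, 3L held 15.2% at a threshold of 2500 bp, so its share at 3000 bp rests in part on where the line is drawn.

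**Figure D2:**
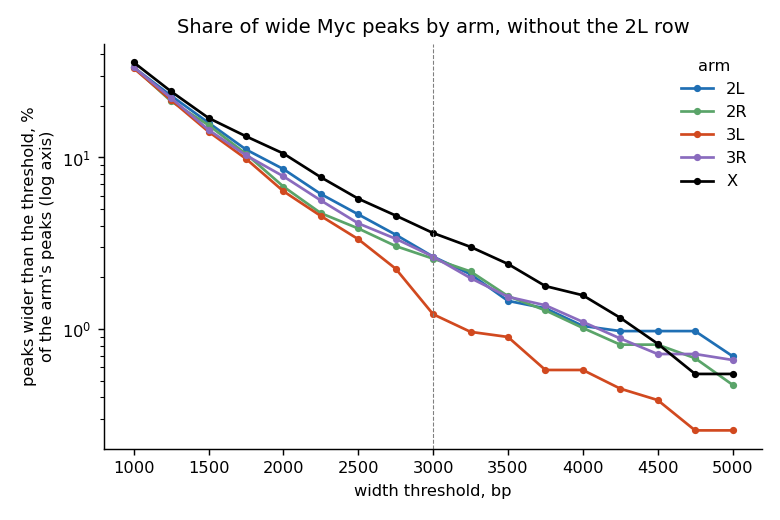
Percentage of the peaks of each long arm that were wider than a threshold, on a log axis, for thresholds from 1000 to 5000 bp, without the 2L row. The dashed line marks 3000 bp, where X stood at 3.63%, 3L at 1.22% and the other arms between 2.57% and 2.65%.

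Chromosome 4 carried 3 broad peaks among 99, or 3.03%. They were 3339 bp from 87276 to 90614 with a score of 585.54, 3559 bp from 149807 to 153365 with 196.61, and 3056 bp from 1047212 to 1050267 with 167.11. None was over 4000 bp, and so small a number supports no comparison with the long arms.

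Along the 5 long arms, broad peaks outside the row were most frequent in the middle and just beyond it, away from the centromere. With each arm's span cut into 5 equal parts counted from its centromeric end, the parts held 26, 37, 47, 49 and 37 of the 196 broad peaks outside the row. That is 13.3%, 18.9%, 24.0%, 25.0% and 18.9%, where all arm peaks gave 17.8%, 19.9%, 20.2%, 20.8% and 21.3%. The score-matched peaks gave 17.5%, 21.7%, 17.6%, 21.0% and 22.2%. The part next to the centromere thus held a smaller share of the broad peaks outside the row than of both other sets. The parts with 47 and 49 held larger ones. The row itself lies in the part next to the centromere, at fractions of 0.93 to 0.94 of the 2L span from its first base. Its 23 peaks are left out of the 26 but are among all arm peaks, so the smaller share does not hold with the row counted.

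**Figure D3:**
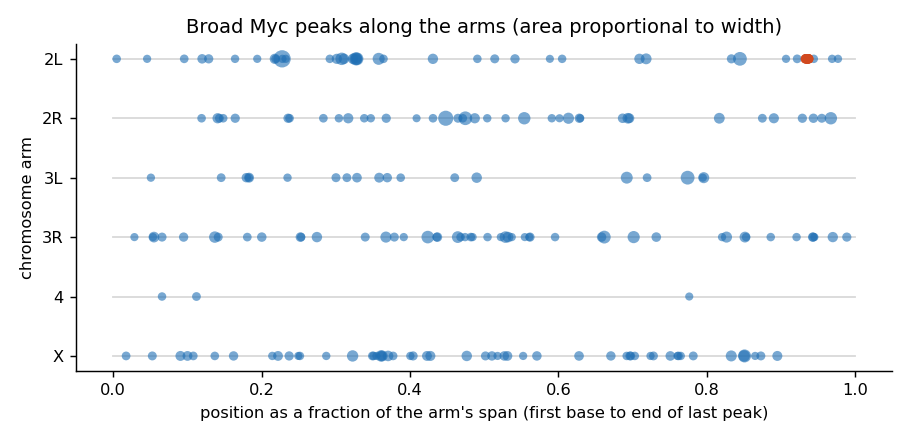
Position of the 222 broad peaks on each arm as a fraction of the arm's span, from its first base to the end of its last peak, with the area of a point proportional to the width of the peak. Blue points are the 199 peaks outside the row and the red cluster on 2L is the row; the red points merge at this scale, and chromosome 4 holds 3 points.

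Most broad peaks outside the row stood far from one another. Between neighbouring starts on an arm the middle step was 359.7 kb, with quartiles of 148.2 and 778.0 kb, and 29 of 193 steps exceeded 1 Mb. The longest step was 4957.7 kb, on 3L. By arm the median step was 246.9 kb on X, 341.5 kb on 2R, 378.8 kb on 2L, 499.0 kb on 3R and 700.6 kb on 3L. Another broad peak lay within 50 kb of 46 of the 199, or 23.1%, against 19.0% for the matched peaks and 20.9% of all arm peaks. Within 100 kb the shares were 36.2% (72 of 199), 31.4% and 33.4%. Both shares are close to the background, and nothing is read from them about broad peaks lying near each other.

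A few short chains of broad peaks lay at the short end of this spacing. With starts under 20 kb apart there were 6 chains outside the row, with 14 members, and 2 of the chains had 3. They came from 8 of the 193 steps. Chains were not counted among the matched peaks or all arm peaks, so nothing is read from them about broad peaks lying near each other. The tightest chain, on 2L from 7527152 to 7545859, held 3 broad peaks in 18.7 kb, which covered 96.0% of it. Its members were 3979, 6249 and 7739 bp wide, scored 140.53, 798.26 and 731.61, and were parted by 475 bp and 266 bp. The other chain of 3, on X from 8084739 to 8126175, was looser. Its members scored 432.35, 492.51 and 445.13, were 5952, 4073 and 5585 bp wide, and lay 13019 and 12808 bp apart with 6 narrower peaks between the first and the last.

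Chains of 2 lay on 2L, 3L, 3R and X. The widest peak of the arms, on 2L, was followed after 1006 bp by a peak from 5235981 to 5239156 that scored 633.37, and both covered 94.4% of 17.9 kb. On 3L, peaks of 3128 and 4536 bp from 4484494 to 4493207 were 1050 bp apart. On X, peaks of 6038 and 7804 bp from 19053923 to 19072041 were 4277 bp apart, and on 3R, peaks of 4055 and 3817 bp from 26289559 to 26312318 were 14888 bp apart.

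Over bins of 1 Mb, 30 of 121 bins on the long arms held no broad peak outside the row and 6 held 5 or more. The mean was 1.62 per bin and the variance 2.1, and whether any bin departs from an even spread was not tested. The fullest bins were named after their values were seen. The bin of 2L between 7 and 8 Mb held 7, which were the chain of 3, the peak of 7716 bp from 7502532, and 3 others that began at 7067632, 7137969 and 7421084 with scores of 460.77, 349.39 and 158.38. The bin of X between 8 and 9 Mb held 6, of which the chain of 3 was a part. Across the bins the number of broad peaks and the number of all peaks had a Spearman's rho of 0.35, and both depend on where peaks of any kind were called.

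Broad peaks had closer neighbours than score-matched narrower peaks. Measured from edge to edge, the nearest other peak was a median of 1382 bp away, with quartiles of 258 and 4486 bp, against 3780 bp with quartiles of 1579 and 8300 bp for the matches and 2786 bp for all arm peaks. The nearest neighbour was closer than the median of the 10 matches for 138 of 199 broad peaks and farther for 61, and the median difference was −1976.5 bp. The difference had the same sign on all 5 long arms, from −1177.0 bp on 2R to −2958.0 bp on 3L. It was also negative in each score class, at −1682.5 bp up to 200, −1935.0 bp from 200 to 400 and −2399.5 bp above 400. By width it was −1290.0 bp for the 117 peaks up to 4000 bp, −2291.5 bp for the 41 up to 5000 bp and −3590.5 bp for the 41 above.

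The density of neighbours differed most in the first 2 kb. Another peak lay within 500 bp of 71 of the 199 broad peaks, or 35.7%, against 11.9% of the matches and 19.1% of all arm peaks. Within 1 kb the numbers were 91, or 45.7%, against 16.4% and 26.0%. Peaks within 1 kb on both sides flanked 17 broad peaks, or 8.5%, against 1.1% and 4.25%. Beyond 10 kb from any other peak were 22, or 11.1%, against 19.4% and 15.3%. The most isolated of these were on 3R, from 1832193 to 1835952 with 143802 and 102056 bp to its neighbours, and from 13055943 to 13059328 with 77903 and 151850 bp.

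In the first 500 bp from an edge there were 417.1 other peaks per Mb around broad peaks and 124.6 around the matches. From 500 bp to 1 kb the values were 180.9 and 62.8, and from 1 to 2 kb 201.0 and 88.4. From 2 to 5 kb they had come down to 106.4 and 95.3, and from 50 to 100 kb they were 72.2 and 69.0.

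**Figure D4:**
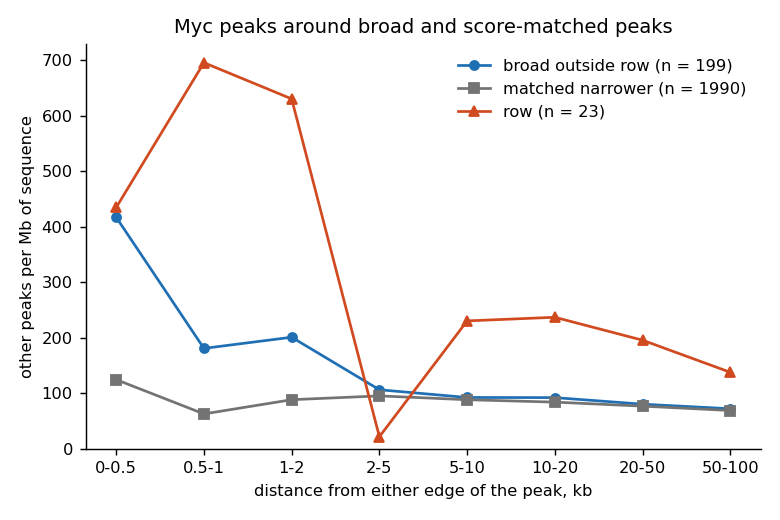
Number of other arm peaks per Mb of sequence in 8 classes of distance from either edge of a peak, in kb. Blue circles stand for the 199 broad peaks outside the 2L row and grey squares for their 1990 score matches (1302 distinct peaks). Red triangles stand for the 23 peaks of the row. Blue lies well above grey up to 2 kb and slightly above it from 2 kb on.

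The close neighbours were mostly small. Broad peaks and adjacent peaks less than 500 bp from them formed 82 pairs, in which a peak can count more than once. In 4 pairs the neighbour was itself broad. The neighbours in these 82 pairs had a median score of 16.39 and a median width of 560 bp. In 78 pairs, or 95.1%, the neighbour scored lower than the broad peak beside it. Close neighbours of the matches were alike, with a median score of 18.39 and a median width of 536 bp, and 93.5% scored lower. With peaks less than 500 bp apart merged into 1 first, the arms held 316 broad peaks, and the difference in distance to the nearest neighbour was −1094.5 bp. Measured between midpoints, which makes a wide peak farther from everything, it was −754.5 bp, with medians of 4284 bp for broad peaks and 5017 bp for the matches.

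Over larger distances the surroundings of broad peaks were only slightly denser. Within 50 kb of an edge lay a median of 9 other peaks, with quartiles of 7 and 12, against 8 with quartiles of 5 and 11 for the matches and 8 for all arm peaks. The median difference was 1.0, with 115 broad peaks above and 74 below the median of their matches, and it ran from 0.25 on 2R to 2.0 on 3L. It was 2.5 among the 59 broad peaks scoring above 400 and 0.0 among the 53 scoring up to 200. Within 100 kb the medians were 16 and 14 and the median difference 2.0, but on 3R it was −0.75. Counting as neighbours only the peaks at or above the median score, the median difference within 50 kb was 0.0, with 4 for both sets. Other peaks covered a median of 8.04% of the 100 kb flanking a broad peak, against 7.46% for the matches.

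A broad peak was the strongest within 50 kb in 96 of 199 cases, or 48.2%, against 43.8% of the score-matched peaks and 13.2% of all arm peaks. Most of the distance to all arm peaks was thus shared by the narrower peaks of the same score.

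The row near the base of 2L consisted of 23 broad peaks that began from 21416849 to 21536242, within a stretch of 122.6 kb of which they covered 73.7%. It held 10.36% of all broad peaks in a single place, and raised the share of broad peaks on 2L from 19.1% to 27.48%. The proximal part of 2L is known to hold the tandem array of the replication-dependent histone genes, whose products package newly made DNA. A RefSeq gene table of Release 6, from which only names and gene order were taken, lists 111 such genes on 2L with at most 2 other genes between neighbours. They are 23 His1, 23 His2B, 23 His3, 22 His4 and 20 His2A genes, and from 19 of the His1 genes the order of the next ones was His2B, His2A, His4 and His3. Whether the peaks of the row lie on these genes was not tested, since the table is of another release.

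The peaks of the row repeated at a regular step, and the starts were more regular than the ends. Leaving out 1 long step, 21 steps between starts ran from 4811 to 5149 bp with an SD of 94.7 bp, while the steps between ends ran from 4247 to 5510 bp with an SD of 256.3 bp. The gaps between neighbouring peaks had a median of 1064 bp and ran from 770 to 1346 bp. The widths had a mean of 3928.3 ± 199.1 bp (SD over 23 peaks), or 3959.0 ± 137.1 bp without the last one, which was the narrowest at 3253 bp. The peak from 21426771 to 21431087 was the widest at 4317 bp and also the weakest, with a score of 105.92. Width and score had a Spearman's rho of 0.12 across the 23. The peaks share a place and may share sequence, so they are no replicates of each other.

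Scores within the row were low for broad peaks and differed among its parts. Their median was 143.26, between extremes of 105.92 and 209.25, and lay below the lower quartile of 193.44 of the other broad peaks. The 5 peaks before the long step scored 135.16, 117.28, 105.92, 173.77 and 142.27. The 18 after it ran from 118.73 to 209.25 with a median of 156.47. Of these, the first 7 had a median of 132.13 and the last 11 a median of 169.35, against 135.16 for the 5 before the step. The higher median thus did not begin at the long step. The strongest, from 21531284 to 21535247, scored 209.25, and the next, from 21506633 to 21510726, scored 203.43. Between them lay a peak that scored 192.63 and 3 of the weaker ones, with 124.32, 130.46 and 134.16. The score thus did not rise evenly along the row.

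The long step of 13956 bp began at the fifth peak and was 2.77 times the median step of 5043 bp, which is not a whole multiple of it. After the end of that peak, at 21440831, no peak of any width was listed for 9441 bp. A peak of 303 bp with a score of 28.78 then stood 367 bp before the next broad one.

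Small peaks lay in the gaps of the row. There were 6, from 207 to 431 bp wide, with scores from 8.50 to 28.78. Each ended between 367 and 588 bp before the start of the next broad peak. The one in the long step began 9441 bp after the end of the previous broad peak, and the other 5 began 62 to 396 bp after it, so that these 5 lay nearer to the previous peak than to the next. Another small peak, of 276 bp with a score of 11.45, lay 104 bp before the first broad peak. Past the last broad peak, 4 narrower peaks from 21540847 to 21543689 filled 2843 bp with gaps of 100, 55 and 68 bp. They scored 107.19, 41.77, 95.57 and 27.92, and the first of them began 4605 bp after the start of the last broad peak. After them the next peak was 29280 bp away. These features were singled out after their values were seen.

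**Figure D5:**
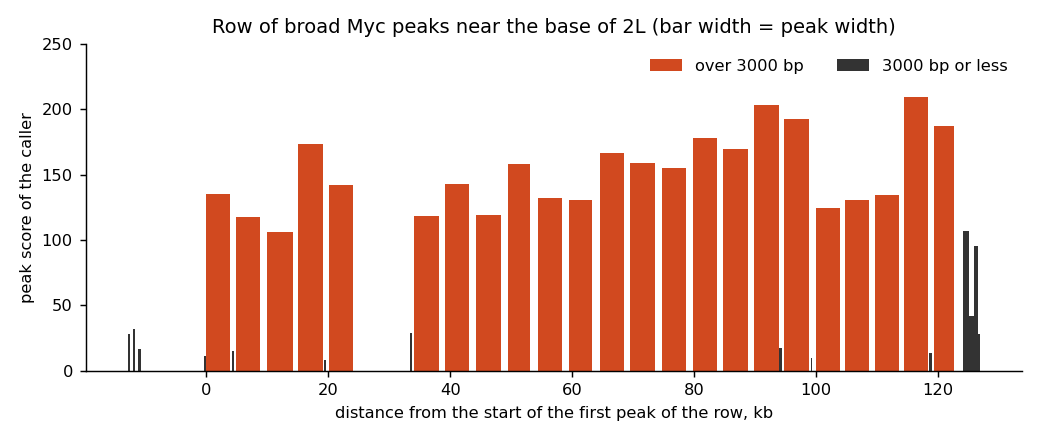
Peaks in and around the row near the base of 2L, with the distance from the start of its first peak in kb on the horizontal axis and the peak caller's score on the vertical axis. Each bar is 1 peak and as wide as that peak, red for the 23 broad peaks and black for peaks of 3000 bp or less; 5 red bars stand before the long step and 18 after it.

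The surroundings of the row differed from those of the other broad peaks by its own repetition. Each of its 23 peaks had another broad peak within 50 kb, against 46 of the other 199 and 20.9% of all arm peaks. They had a median of 22 other peaks within 50 kb, against 9. The row was set apart as 23 broad peaks in 122.6 kb, so both values largely follow from that choice and are given as description. Another peak lay within 500 bp of 8 of the 23, or 34.8%, against 10.9% of their score matches and 19.1% of all arm peaks. Within 1 kb the numbers were 14, or 60.9%, against 15.2% and 26.0%. Leaving out the long step, gaps between neighbouring peaks of the row ran from 770 to 1346 bp. The share within 1 kb, unlike that within 500 bp, thus counts members of the row as neighbours. It follows in part from how the row was set apart. From 2 to 5 kb from an edge there were 21.7 other peaks per Mb, and from 5 to 10 kb 230.4, since that range falls on the neighbours after the next. Against narrower peaks of like score, which had a median of 8 others within 50 kb, all 23 peaks of the row had more. This too largely follows from how the row was set apart.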

How the data were processed

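The data analysed here are 1 list of Myc ChIP-seq peaks for all 4 libraries (2 ChIP, 2 input). Per the file headers the build is FlyBase Release 5, and each line names MACS as its source. BWA, MACS2, CASAVA (1.7.0.3 and 1.7.0.2) and the build BDGP5 stand in the submitters' processing notes, without roles. Not given in the sources used here are the threshold, the filters and whether replicates were pooled. The deposited score is the authors' value for a peak, of unnamed scale, and served only to rank and match peaks within the list. Starts and ends count from 1.

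Arm peaks over 3000 bp were taken. The rule, the 2L row and the comparisons were chosen with earlier results of these data known. Each broad peak was set against the 10 narrower arm peaks nearest in score. Distances are bases between peak edges, and windows were counted from the edges. A span runs from the first base to the end of the last peak, since arm lengths were not used. Peaks named in full are the 10 widest and 10 strongest, the weakest, the chains of 3 and the peaks at the threshold; others were chosen after their values were seen. No resampling was made and no p-value is given. The distance, matching and merging steps were tested on simulated lists. Python 3.11.15, numpy 2.4.6, pandas 2.3.3 and matplotlib 3.10.9 were used. Genes and sequences of Release 5 were not used here.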

Additional observations from a re-analysis of the deposited data

Results flagged for a closer look

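Outside the 6 arms, which the comparisons do not use, 5 of 747 peaks (0.67%) were wider than 3000 bp. This is a signal in sequences not otherwise described here, and the list gives no level in input DNA to set it against. All 5 lay on U, which collects scaffolds not assigned to a chromosome. They fell in 2 places. One held peaks of 5283, 9059 and 5633 bp from 1988457 to 2013421, with scores of 105.15, 89.12 and 44.77. The other held peaks of 13013 and 16740 bp from 2153172 to 2183108, with scores of 163.66 and 278.93.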

How the results depend on the processing

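Of 45 alternatives, 31 kept a count within 1.5 times, or a value within the spread over the 5 long arms, the SD of the steps, or a 95% binomial interval for shares of arms. None turned a difference to the other sign. The binomial interval takes the 222 broad peaks, row included, as independent draws, which they are not. The arm-share alternatives leave the row out, so for them the interval is only a rough yardstick. The midpoint, merged-neighbour and arm-share alternatives at 2500 and 4000 bp were added after seeing the data. The number of broad peaks was 222, and 365 over 2500 bp and 90 over 4000 bp. The median score outside the row was 305.39, and 372.83 over 4000 bp. The difference in distance to the nearest peak was −1976.5 bp, and −2929.75 bp over 4000 bp, −1094.5 bp with peaks within 500 bp merged and −754.5 bp between midpoints. The difference in peaks within 50 kb was 1.0, and 2.0 over 4000 bp, 2.0 within 100 kb and 0.0 with stronger neighbours only. The share of broad peaks on 2L was 27.48%, and 19.1% without the row, 19.59% over 2500 bp and 18.29% over 4000 bp, the last 2 also without it. The share on 3L was 8.56% with the row counted and 9.55% without it, and 15.2% over 2500 bp without the row. That on chromosome 4 was 1.35% with the row and 1.51% without it, and 0.0% over 4000 bp without the row. The cause of these moves was not tested, beyond the row taken out of 2L.

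No paired analysis was possible because the list holds no value per library. Leaving out a replicate could not be tried either. The sequence features planned for these peaks were not run without a Release 5 genome. Depth is unknown, so weaker parts of a region that missed the authors' threshold, and would widen or join peaks, do not show.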
